A study of Mus musculus with 27 samples.

Results

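The 7 mature miRNAs described here are miR-149-5p, miR-346-5p, miR-1224-5p, miR-1249-3p, miR-455-3p, miR-760-3p and miR-3099-3p. They were selected on their measured levels, out of 844 miRNAs listed in the series, as higher in tissue of the suprachiasmatic nucleus (SCN) than in hypothalamus. All 7 were found by name, and each was followed through all 27 small-RNA libraries of C57BL/6 mice, with a miRNA that a library does not list taken as 0. The libraries fall into 4 parts. SCN tissue was set beside hypothalamus and cortex (2 libraries each). The SCN was also sampled once at each of 11 times, every 4 h from zeitgeber time (ZT, hours counted from lights on) 2 to 42. SCN neurons labelled AVP, VIP and CCK gave 2 libraries per type, and SCN at circadian time (CT) 18 gave 2 libraries labelled LP and 2 labelled CTRL. The labels do not spell out LP (the series description speaks of a light response), do not say how the neurons were collected, and give neither sex nor age. They also do not say whether replicates came from separate animals, so p-values measure the spread between these libraries only.

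The SCN is the pacemaker of circadian rhythms in mammals. Its neurons differ in the neuropeptide they make: AVP is vasopressin, VIP is vasoactive intestinal peptide and CCK is cholecystokinin. A miRNA is cut as a short strand from a hairpin transcript, is loaded into an Argonaute protein, and lowers the stability and translation of mRNAs that pair with it. The seed, bases 2 to 8 from its 5′ end, sets most of that pairing, so miRNAs with the same seed are counted as a family.

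The mature sequences are printed here because seed and base composition are what the 7 can be compared on apart from their levels. They were taken from RefSeq (GRCm38.p6), and the capitals mark the seed.

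miR-149-5p: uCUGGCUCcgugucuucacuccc

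miR-346-5p: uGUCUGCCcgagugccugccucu

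miR-1224-5p: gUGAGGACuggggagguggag

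miR-1249-3p: aCGCCCUUcccccccuucuuca

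miR-455-3p: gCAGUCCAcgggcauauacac

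miR-760-3p: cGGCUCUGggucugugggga

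miR-3099-3p: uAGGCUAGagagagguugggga

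No pair of these seeds is the same, and none of the 690 listed miRNAs with a sequence shares a seed with any of the 7. Within the first 9 bases, the longest runs of letters that any pair has in common are 5 bases long. They are UCUGG and GGCUC, both in miR-149-5p and miR-760-3p, and GGCUC lies inside the seed of each. The 7 are rich in G and C. Their G and C content was 54.5% to 70.0% with a median of 63.6%, beside a median of 47.6% over the 321 of 378 miRNAs tested in the tissue libraries that have a sequence. miR-760-3p lies near the top of that range, where 2.18% of the 321 had as much G and C, and miR-3099-3p is the least extreme, at 32.4%.

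The hairpins come from 7 chromosomes, so the set is not a cluster. In GENCODE M21 (GRCm38), Mir149 lies at chr1:92850378-92850443 in an intron of Gpc1, which encodes a glypican. Mir346 lies at chr14:34894609-34894706 in an intron of Grid1, a delta-type glutamate receptor subunit. Mir455 lies at chr4:63256851-63256932 in an intron of the collagen gene Col27a1. Mir3099 lies at chr7:6803587-6803670 in an intron of Usp29, a deubiquitinase gene expressed from the paternal allele. All 4 are on the strand of their host. Mir1249 (chr15:84951526-84951623) overlaps an exon of a retained-intron transcript of 5031439G07Rik, and Mir760 (chr3:122293585-122293703) an exon of such a transcript of the noncoding gene Gm17494. Both share the strand of those transcripts, and Mir760 also lies opposite an intron of Gm40190.

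Mir1224 differs from the rest in its position. Its hairpin at chr16:20604452-20604536 fills a whole intron of Vwa5b2, with 0 bases left to the exon on either side. A hairpin of this kind, called a mirtron, is released by splicing and not by Drosha. It is printed on the plus strand as RefSeq RNA letters, with both mature arms in capitals, to show that the arms themselves form the ends of the intron.

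Mir1224 hairpin: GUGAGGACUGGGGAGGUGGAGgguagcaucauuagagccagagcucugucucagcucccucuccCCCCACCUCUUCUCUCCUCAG

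Nearly all reads of each hairpin came from the named arm. Summed over the 27 libraries, miR-149-5p had 323678 reads and miR-149-3p 1 read. The least one-sided was the mirtron, with 3368 reads for miR-1224-5p and 60 for miR-1224-3p, or 98.25% on the named arm. The other 5 members held 99.44% to 100% of their hairpin's reads, and no other arm passed 4.3 CPM in any library.

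Levels are given as CPM, counts per 1e+06 reads, which is the deposited value divided by 10. The reads behind them, recovered from the steps between low values, numbered 469812 to 5134640 per library, and 3 reads, taken as the limit that a count of 0 allows, correspond to 0.585 to 6.39 CPM. Such limits cover counting error only. Neuron libraries listed 215 to 312 miRNAs and the other libraries 552 to 635. The neuronal marker miRNAs (5 of 5 listed, miR-124-3p among them) summed to 2867 to 17644 CPM in the neuron libraries, below the 33171 to 56859 CPM of the SCN tissue and time course libraries, and miR-138-5p and miR-137-3p were listed at 0 in both AVP libraries. The marker list for microglia and leukocytes summed to at most 2.0 CPM in any neuron library, beside 307.4 CPM or more in SCN tissue of every part.

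**Figure D1:**
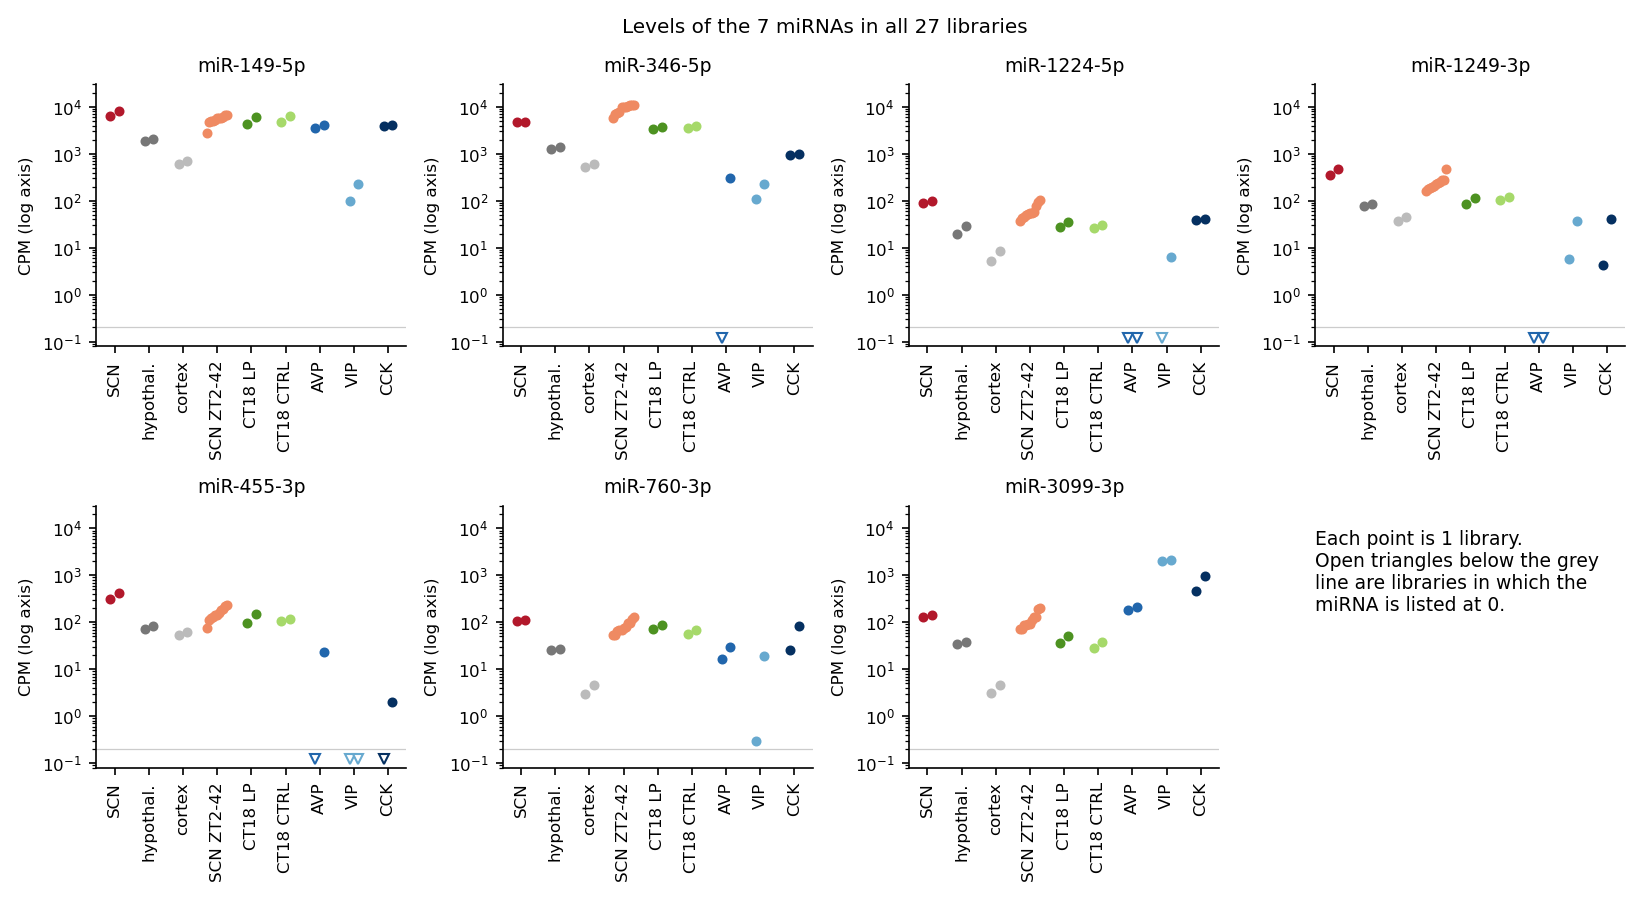
Level of each of the 7 miRNAs in CPM on a log axis, with 1 point per library and open triangles for libraries that list the miRNA at 0. SCN libraries of each part stand above cortex for all 7, while the neuron types spread widely: miR-149-5p is at 100.5 and 230.6 CPM in VIP neurons, and miR-3099-3p is at 2069.4 and 2160.9 CPM there.

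SCN tissue against hypothalamus is the comparison that chose the 7, so its values are a description and carry no test. miR-149-5p was the most abundant, with 8039.9 and 6529.3 CPM in SCN, against 1919.4 and 2044.6 CPM in hypothalamus and 597.4 and 693.6 CPM in cortex. miR-346-5p had 4778.1 and 4724.4 CPM in SCN, against 1382.4 and 1286.9 CPM in hypothalamus and 526.5 and 596.5 CPM in cortex. These 2 carried most of the set: together the 7 took up 1.23% and 1.40% of SCN reads, 0.356% and 0.357% of hypothalamus reads, and 0.124% and 0.140% of cortex reads.

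A middle pair followed at lower levels. miR-1249-3p had 466.0 and 349.9 CPM in SCN, against 78.8 and 86.0 CPM in hypothalamus and 44.8 and 37.5 CPM in cortex. miR-455-3p had 413.5 and 311.2 CPM in SCN, against 83.7 and 73.0 CPM in hypothalamus and 54.3 and 60.6 CPM in cortex. For miR-455-3p hypothalamus stood close to cortex, at 1.36-fold, and the step between SCN and the other tissues was the larger one for both.

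The remaining 3 were near 100 CPM in SCN. miR-3099-3p had 132.7 and 140.9 CPM in SCN, against 35.0 and 38.3 CPM in hypothalamus and 3.1 and 4.6 CPM in cortex. miR-760-3p had 113.1 and 104.3 CPM in SCN, against 27.6 and 26.1 CPM in hypothalamus and 4.7 and 3.0 CPM in cortex. miR-1224-5p had 88.6 and 98.8 CPM in SCN, against 29.3 and 19.3 CPM in hypothalamus and 5.1 and 8.7 CPM in cortex. These 3 also stepped down clearly between the other tissues, with hypothalamus over cortex at 9.52-fold, 6.97-fold and 3.52-fold.

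As ratios of means, SCN over hypothalamus ran from 3.56 (miR-346-5p) to 4.95 (miR-1249-3p), beside a median of 0.819 over the 378 tested miRNAs, and SCN over cortex from 6.31 (miR-455-3p) to 35.5 (miR-3099-3p), beside a median of 1.04. With the libraries rescaled so that the median miRNA is level, which lifts the ratios because the median lies below 1, SCN over hypothalamus was 4.36 to 6.03. The 7 held places 6, 7, 11, 12, 15, 16 and 20 in the ranking by SCN over hypothalamus, so 5 miRNAs that were not chosen rank above all of them, led by miR-877-3p at 14.5, and 8 lie between the first and the last. Just below the last member came miR-5099 at 3.43. Both SCN libraries lay above both hypothalamus libraries in all 7, which the choice fixed; 35.4% of the 378 did the same. Both SCN libraries also lay above both cortex libraries in all 7 (46.8% of the 378), and both hypothalamus libraries above both cortex libraries in all 7 (59.0% of the 378).

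Base composition moved with this contrast across the whole table. Over the 321 miRNAs with a sequence, the log2 ratio of SCN to hypothalamus correlated with G and C content at Pearson r = 0.628, a correlation across miRNAs of the same 4 libraries and not across replicates. The median log2 ratio was 1.08 in the 52 miRNAs with at least 60% G and C, 5 of the 7 among them, and -0.50 in the others. The 60% limit was chosen after the values were seen. The 7 lay at log2 ratios of 1.83 to 2.31, above that median of GC-rich miRNAs. Choosing them for this same ratio favoured that position, so nothing about base composition is read from it. The correlation was 0.496 for SCN over cortex and 0.141 for hypothalamus over cortex. Weighted by reads, mean G and C was 48.11% and 48.32% in the SCN libraries, 45.62% and 45.77% in hypothalamus and 45.25% and 45.39% in cortex. The part of base composition in the SCN values of the 7 was not tested. Marker lists moved too. The 4 vascular miRNAs summed to 3850 and 3863 CPM in SCN, against 10880 to 11612 CPM in hypothalamus. The 4 oligodendrocyte miRNAs summed to 1004 and 1551 CPM in SCN, against 3566 to 4185 CPM in hypothalamus, and none of either list was at 0. The 5 neuronal miRNAs, none at 0, summed to 33171 and 38503 CPM in SCN, against 48857 and 51071 CPM in hypothalamus. The 5 microglia and leukocyte miRNAs were higher in SCN, at 486.0 and 533.2 CPM, against 270.8 and 300.3 CPM in hypothalamus. In each SCN library 2 of these were at 0, miR-142-3p in both. The choroid plexus and ciliated-cell list was also higher in SCN, at 8623 and 8890 CPM with miR-449a-5p at 0, against 7424 and 7212 CPM in hypothalamus. The 2 miR-7 miRNAs of the hypothalamus list summed to 51562 and 48276 CPM in SCN, against 79929 and 81358 CPM in hypothalamus. The erythrocyte list overlapped. The part of these lists was not tested. In bulk tissue, fewer cells of a type and less RNA per cell cannot be told apart.

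**Figure D2:**
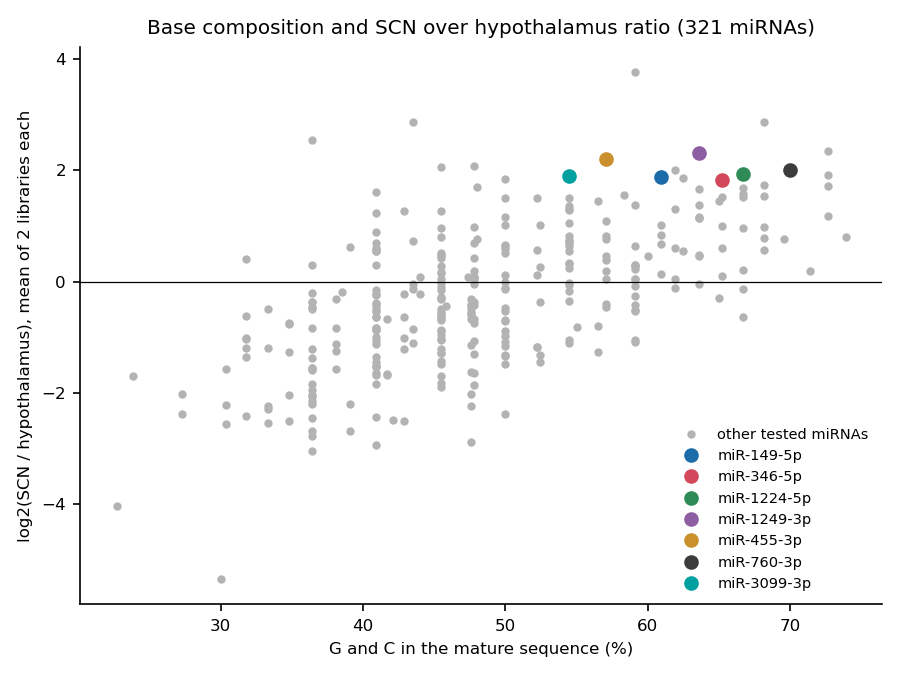
Each point is 1 of 321 miRNAs, with G and C content of the mature sequence in percent on the x axis and log2(SCN / hypothalamus) of mean values with 1 added on the y axis; coloured points are the 7 members. Ratios rise with G and C content (r = 0.628), and the members lie at 54.5% to 70.0%.

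The 15 further SCN libraries, 11 of the time course and 4 of CT18, did not enter the choice, but the hypothalamus libraries did. The parts may also be separate batches, so these values too carry no test. All 15 stood above both cortex libraries for every one of the 7, where 20.6% of the 378 tested miRNAs did so. All 15 stood above both hypothalamus libraries for miR-149-5p, miR-346-5p and miR-760-3p, 3 of 7 against 8.99% of the 378. The count was 14 of 15 for miR-1249-3p and miR-455-3p, and 13 of 15 for miR-1224-5p and miR-3099-3p. miR-149-5p ranged from 2840.6 to 6702.5 CPM there, with a median of 5770.9 CPM, against at most 2044.6 CPM in hypothalamus. The lowest of these SCN values lay within the hypothalamus range for miR-1224-5p, at 26.4 CPM against 19.3 to 29.3 CPM. The same held for miR-1249-3p (85.5 CPM, against 78.8 to 86.0 CPM) and miR-455-3p (74.7 CPM, against 73.0 to 83.7 CPM). For miR-3099-3p the lowest value was below both hypothalamus libraries, at 28.7 CPM against 35.0 and 38.3 CPM.

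The members differed between the neuron types, and here the rule that chose the 7 used none of the libraries. By correlation of log2 values, replicates were less alike than elsewhere. The Pearson r of log2 values between the libraries of a pair was 0.635 (AVP), 0.671 (VIP) and 0.59 (CCK). In the tissue and CT18 pairs it was 0.971 to 0.989. The spread relative to counting error did not give the same order. As chi-square per degree of freedom it was 67.5 (AVP), 554 (VIP) and 13.8 (CCK), beside 16.9 to 211 in those pairs. This measure rises with depth, which was lowest in the CCK libraries. Differences were wide and opposite for miR-149-5p and miR-3099-3p: miR-149-5p was abundant in AVP and CCK neurons and low in VIP neurons, and miR-3099-3p was highest in VIP neurons. The other 5 were low or listed at 0 in several neuron libraries. limma tested 305 miRNAs in 1 model of the 6 libraries, 6 of the 7 among them, since miR-455-3p did not reach the minimum of 10 CPM in 2 libraries.

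miR-149-5p had 3471.8 and 4130.9 CPM in AVP neurons, against 230.6 and 100.5 CPM in VIP neurons and 3873.7 and 4106.3 CPM in CCK neurons. AVP and CCK libraries overlapped, and VIP libraries lay far below both. The mean was 23.0-fold higher in AVP than in VIP neurons, with a log2 fold change of 4.64 (SE 0.44, 95% interval 3.48 to 5.79, adjusted p = 0.0047 by limma with Benjamini-Hochberg adjustment). VIP against CCK neurons gave a log2 fold change of -4.71 (95% interval -5.87 to -3.55, limma adjusted p = 0.004). That call was lost when a CCK library was left out, at adjusted p = 0.086 without replicate 1 and 0.075 without replicate 2, with log2 fold changes of -4.75 and -4.67. AVP against CCK neurons gave -0.07, with an interval of -1.23 to 1.08, so a difference of about 2-fold either way remained possible.

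miR-3099-3p had 182.8 and 213.9 CPM in AVP neurons, against 2069.4 and 2160.9 CPM in VIP neurons and 956.7 and 466.3 CPM in CCK neurons. The 3 types did not overlap, in the order VIP, CCK, AVP. AVP against VIP neurons gave a log2 fold change of -3.42 (95% interval -4.49 to -2.34, limma adjusted p = 0.0069), a mean 10.7-fold higher in VIP. The difference of VIP from CCK neurons was 1.66 (95% interval 0.59 to 2.74, limma adjusted p = 0.043), and it was no longer called when any of the 6 libraries was left out, with adjusted p of 0.053 to 0.16. AVP against CCK neurons gave -1.76 (95% interval -2.83 to -0.68) and missed the threshold at an adjusted p of 0.054 by limma. In VIP neurons this miRNA stood at place 30 and 37 among all miRNAs, against places 161 and 171 in SCN tissue.

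Of the 7 marker lists, 3 followed the same order of types as miR-3099-3p without overlap. The 6 listed choroid plexus and ciliated-cell miRNAs summed to 84 and 290 CPM in AVP neurons, 9453 and 7564 CPM in VIP neurons and 1500 and 1914 CPM in CCK neurons. Of them, 4 were at 0 in both AVP libraries (miR-211-5p, miR-34b-3p, miR-34b-5p and miR-449a-5p), and the same 4 in both VIP libraries. The 5 neuronal miRNAs summed to 4011 and 2867 CPM in AVP neurons, 17644 and 13165 CPM in VIP neurons and 10677 and 12315 CPM in CCK neurons. The 4 oligodendrocyte miRNAs summed to 134.3 and 45.1 CPM in AVP neurons, 1249 and 756.1 CPM in VIP neurons and 630.6 and 741.5 CPM in CCK neurons, with miR-219-5p and miR-219-2-3p at 0 in all 6 libraries. The part of these lists in the miR-3099-3p values was not tested.

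miR-1249-3p was listed at 0 in both AVP libraries, against 36.3 and 5.7 CPM in VIP neurons and 4.2 and 41.0 CPM in CCK neurons. With 3 reads over the pair of AVP libraries as the floor (2.08 CPM), counting error alone would put AVP neurons at least 10.1-fold below the VIP mean. For the CCK mean this bound was 10.9-fold. Each of these means is carried by 1 library. The floors of the single AVP libraries, 5.60 and 3.31 CPM, lie close to VIP replicate 2 and CCK replicate 1, so the bounds do not hold library by library. AVP against VIP neurons passed the threshold (limma adjusted p = 0.037). However, only VIP replicate 1 and CCK replicate 2 reached the minimum of 10 CPM. The miRNA was thus tested only because of the types set against AVP neurons, and the call is not read as support. With either of those libraries left out it was not tested. The call was lost without either AVP library or VIP replicate 2, as under several other settings. VIP replicate 2 rests on 16 reads and CCK replicate 1 on 2. AVP against CCK neurons gave an adjusted p of 0.064 by limma.

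miR-346-5p differed between the AVP libraries, at 0 and 307.7 CPM, against 228.5 and 111.3 CPM in VIP neurons and 969.4 and 926.4 CPM in CCK neurons. The second AVP value rests on 279 reads, while the first library, where 3 reads would be 5.60 CPM, lists none. CCK libraries lay above all others, by 5.58-fold over the VIP mean, but no difference passed the threshold, with limma adjusted p of 0.31 to 0.69 over the 3 pairs of types. Without AVP replicate 2 both comparisons of AVP neurons were called (adjusted p = 0.0059 against VIP and 0.0085 against CCK), and without AVP replicate 1 VIP against CCK neurons was called (adjusted p = 0.029).

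The mirtron miR-1224-5p was listed at 0 in both AVP libraries, at 0 and 6.4 CPM in VIP neurons, and at 40.4 and 39.0 CPM in CCK neurons. By the same floor, which covers counting error only, AVP neurons were at least 19.1-fold lower than the CCK mean. Each CCK value rests on 19 reads. Only the CCK libraries reached the minimum of 10 CPM, so this miRNA was tested only because it was high there. Its p-values are therefore not read as support, and with either CCK library left out it was not tested. The limma adjusted p was 0.067 for AVP and 0.14 for VIP against CCK neurons. It passed the threshold for AVP against CCK without either VIP library (adjusted p = 0.022 without replicate 1 and 0.023 without replicate 2). For VIP against CCK it passed without VIP replicate 2 (0.036), and for AVP against VIP without VIP replicate 1 (0.044).

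miR-760-3p had 29.8 and 16.5 CPM in AVP neurons, against 0.3 and 19.0 CPM in VIP neurons and 25.5 and 84.2 CPM in CCK neurons, on 1 to 53 reads per library. The AVP libraries overlapped those of both other types, and limma adjusted p ran from 0.26 to 0.82. miR-455-3p was listed at 0 in 4 of the 6 neuron libraries, with 23.1 CPM in AVP replicate 2 and 2.0 CPM, a single read, in CCK replicate 2. In SCN tissue, a separate part of the series, it had 413.5 and 311.2 CPM.

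Against the background, 3 of 6 tested members were called for AVP against VIP neurons, where 32.8% of the 305 miRNAs were called. miR-1249-3p is among the 3, with the limit of the filter given above. None of 6 was called for AVP against CCK neurons, where 16.7% of the 305 were, with 3 members and 88 of the 305 at an unadjusted p under 0.05. For VIP against CCK neurons 2 of 6 were called, where 29.8% of the 305 were. With 6 members, these counts are not read as different from those percentages. The scaling to a fixed total also matters between neuron types. The median log2 fold change over all 305 was 0.26, -0.45 and -0.93 for AVP against VIP, AVP against CCK and VIP against CCK, and -0.06, -0.28 and -0.17 after median-ratio scaling. Calls for VIP against CCK were 25 higher and 66 lower as deposited, and 38 higher and 31 lower after that scaling. Calls for AVP against VIP were 55 higher and 45 lower, and 35 higher and 62 lower. For AVP against CCK neurons they were 8 higher and 43 lower, and 15 higher and 43 lower. The called differences of miR-149-5p and miR-3099-3p kept direction and call under it, at 3.98 and -4.07 for AVP against VIP and -3.89 and 2.48 for VIP against CCK.

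**Figure D3:**
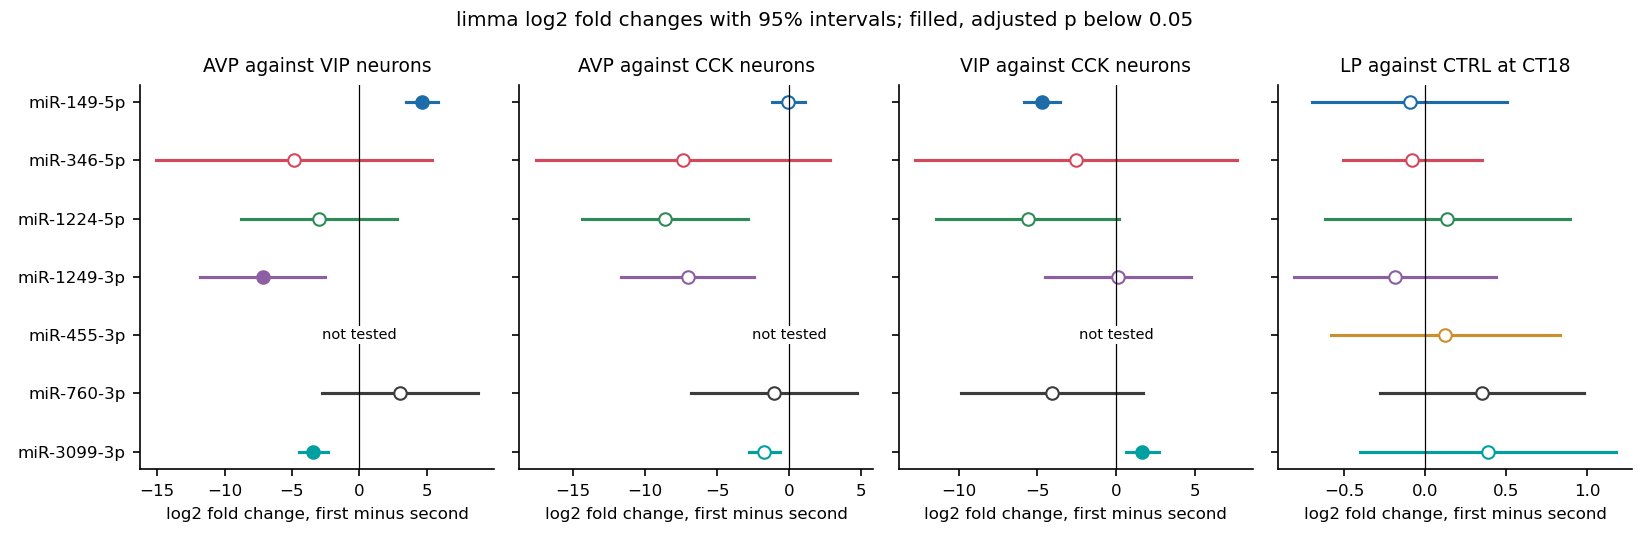
limma log2 fold change of each member, first-named group minus second, with its 95% interval; filled points have an adjusted p under 0.05. miR-149-5p and miR-3099-3p have short intervals on opposite sides of 0 for AVP against VIP neurons, and the low-level members have intervals several log2 units wide. At CT18 every interval includes 0, on a narrower axis.

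The CT18 libraries address the response labelled LP, and none of the 7 passed the threshold by limma. miR-149-5p had 4238.4 and 6214.6 CPM in LP libraries, against 4799.2 and 6251.2 CPM in CTRL libraries. miR-346-5p had 3453.2 and 3648.0 CPM in LP, against 3997.3 and 3512.3 CPM in CTRL. For both, LP and CTRL overlapped. miR-760-3p was the one member whose groups did not overlap, with 73.0 and 87.1 CPM in LP against 56.3 and 69.4 CPM in CTRL, and 15.1% of the 317 tested miRNAs had both LP libraries above both CTRL libraries in the same way.

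The widest difference among the 7 was that of miR-3099-3p, with 51.5 and 37.1 CPM in LP against 28.7 and 38.8 CPM in CTRL and a log2 fold change of 0.39 (95% interval -0.40 to 1.18). miR-1224-5p had 35.1 and 28.2 CPM in LP against 26.4 and 31 CPM in CTRL. miR-1249-3p had 85.5 and 115.0 CPM in LP against 120.5 and 105.6 CPM in CTRL. miR-455-3p had 95.1 and 151.8 CPM in LP against 104.7 and 116.0 CPM in CTRL. Log2 fold changes of the 7 ran from -0.19 to 0.39 around a median of 0.12, beside a median of 0.07 over all 317. limma called 0 of the 7 and 0 of the 317 (0%), with 1 miRNA, none of the 7, at an unadjusted p under 0.05, and the adjusted p was 0.99 for each member. The intervals leave room for changes of up to about 0.5 (miR-346-5p) to 1.18 (miR-3099-3p) on the log2 scale.

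The time course asked whether the SCN level follows the 24 h day, and no rhythm was called. All 7 were listed in all 11 libraries. miR-346-5p was highest here, from 5834.9 CPM at ZT2 to 10937.8 CPM at ZT18, and above both SCN tissue libraries at every time. miR-149-5p lay between 2840.6 CPM at ZT26 and 6702.5 CPM at ZT14. Its value at ZT26 stood apart, with 4653.3 CPM the next lowest. The cosine fit gave amplitudes from 0.18 (miR-1249-3p) to 0.42 (miR-3099-3p) on the log2 scale with a member median of 0.24, equal to the 0.24 over all 357 tested miRNAs. Single libraries decide much of these sizes. That of miR-149-5p, 0.27, was 0.11 without ZT26. That of miR-1249-3p was 0.10 without ZT22, 0.11 without ZT6 and 0.31 without ZT10, and for 4 of the other 5 members, all but miR-3099-3p, some time left out also moved it by over 1.5 times. limma called 0 of the 7 and 0 of the 357 (0%), with 6 of the 357 and none of the members at an unadjusted p under 0.05, and an adjusted p of 0.95 for each member. With 1 library per time, a rhythm of this size could not be separated from the spread between libraries.

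The cycles were also set side by side. Of the 5 pairs of times 24 h apart from ZT2 and ZT26 to ZT18 and ZT42, miR-455-3p, miR-760-3p and miR-3099-3p were lower in the second cycle in 5 of 5, where 8.12% of the 357 tested miRNAs were. Their median log2 differences were -0.53, -0.67 and -0.86, beside -0.10 over all 357. miR-3099-3p, for example, had 70.4, 90.8, 85.7, 110.9 and 89.3 CPM from ZT26 to ZT42, against 127.9, 190.5, 203.3, 131.5 and 94.0 CPM from ZT2 to ZT18. miR-149-5p and miR-1224-5p were lower in 4 of 5 pairs, and miR-346-5p and miR-1249-3p in 2 of 5, with median log2 differences of 0.35 and 0.19. No test was made of this pattern, which was chosen after the values were seen.

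Other values moved along the same libraries. The 2 miR-7 miRNAs of the hypothalamus marker list, neither at 0, summed to 52766 CPM at ZT2 and 33612 CPM at ZT6, against 11940 to 20929 CPM at the 9 later times. The choroid plexus and ciliated-cell list, with 0 to 2 of its 6 miRNAs at 0, summed to 4655 to 6033 CPM from ZT2 to ZT18 and 3638 to 4754 CPM from ZT26 to ZT42. Mean G and C of the reads was 46.66% at ZT2 and 48.07% to 49.99% afterwards. Their part in the difference between cycles was not tested. Among the members, the profiles most alike over the 11 times were those of miR-1224-5p and miR-3099-3p (r = 0.931) and of miR-760-3p and miR-3099-3p (r = 0.829), both pairs high at ZT6 and ZT10. These are descriptions over 11 single libraries that share the same scaling.

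**Figure D4:**
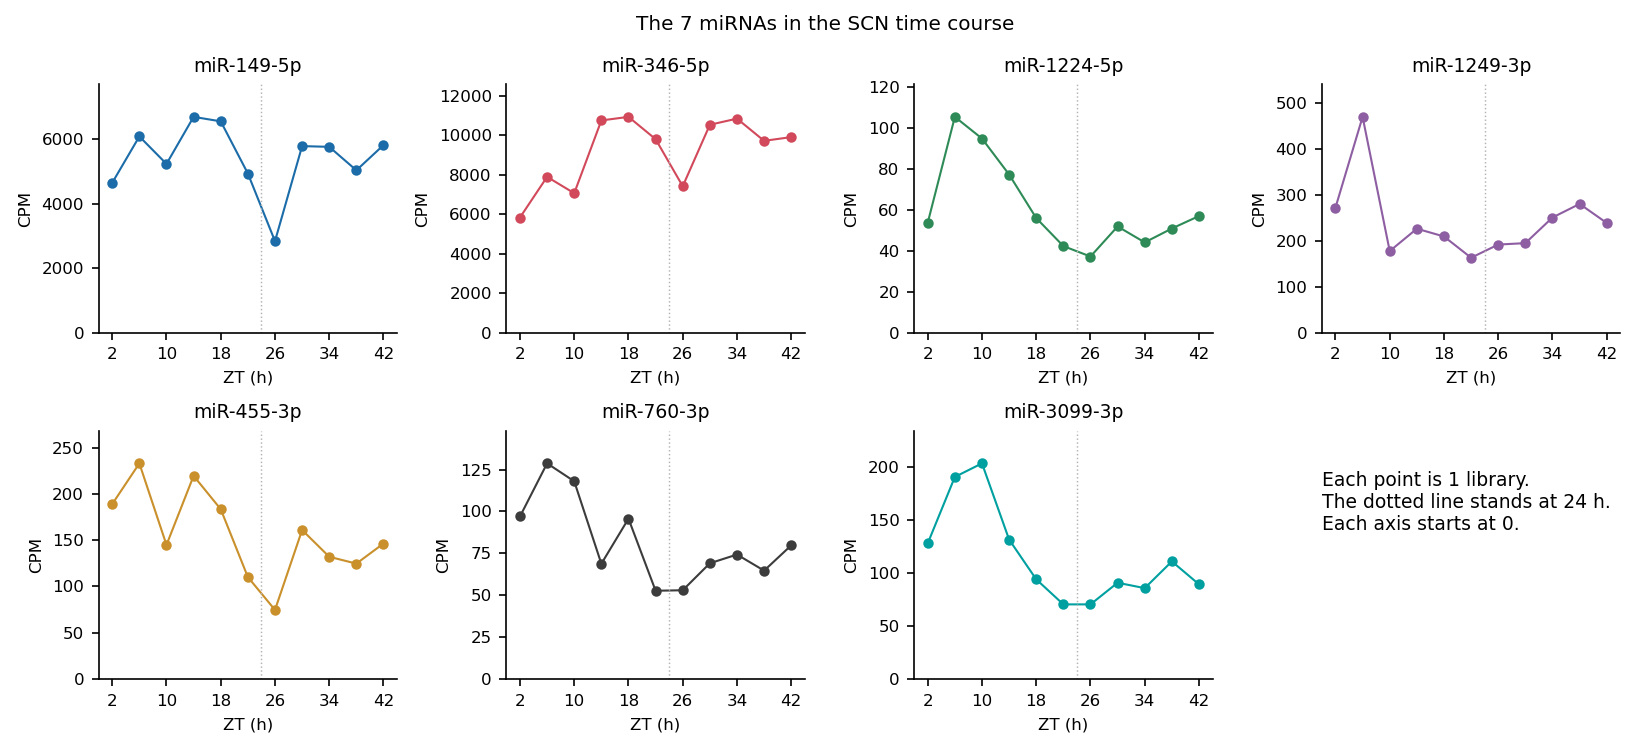
CPM of each member at 11 times from ZT2 to ZT42 (hours, x axis), with 1 library per time and each y axis starting at 0. miR-1224-5p, miR-760-3p and miR-3099-3p are highest at ZT6 or ZT10 and do not return to that level 24 h later, and miR-149-5p has its low point at ZT26.

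Set in order of mean level over the 9 kinds of library, the members did not share 1 order. SCN tissue came first for 5 of them, a count favoured by the choice, which used the SCN tissue libraries. For miR-149-5p it was followed by CT18 CTRL (5525.2 ± 1026.7 CPM, SD, n = 2), the time course (5406.2 ± 1071.2 CPM, SD over 11 times) and CT18 LP (5226.5 ± 1397.4 CPM), whose ranges overlapped, then CCK and AVP neurons, which overlapped, then hypothalamus, cortex and VIP neurons, which did not. Within the time course, ZT14 and ZT18 (6702.5 and 6562.8 CPM) reached the range of SCN tissue, and ZT26 (2840.6 CPM) lay below the AVP and CCK libraries. For miR-346-5p the time course came first and SCN tissue second, without overlap, and AVP and VIP neurons overlapped at the low end. For miR-3099-3p the first 3 places went to VIP, CCK and AVP neurons, which did not overlap with each other, and the time course overlapped with both SCN tissue and AVP neurons, through ZT6 and ZT10 (190.5 and 203.3 CPM). For miR-1224-5p, miR-1249-3p and miR-760-3p SCN tissue overlapped with the time course, and for miR-455-3p it lay above it without overlap. These orders set levels of separately made parts side by side and were not tested.

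For each member the 3 most similar miRNAs were found by Pearson correlation of log2(value + 1) over the 27 libraries among 313 candidates. The closest was miR-744-5p for miR-149-5p (r = 0.935), miR-667-3p for miR-346-5p (0.960) and miR-339-5p for miR-455-3p (0.949). It was miR-672-5p for miR-1249-3p (0.899), miR-3059-5p for miR-1224-5p (0.894), miR-320-3p for miR-760-3p (0.870) and miR-125a-5p for miR-3099-3p (0.849). Within the 17 SCN tissue libraries the same pairs stood at 0.590, 0.805, 0.638, -0.0742, -0.270, 0.682 and 0.453 in that order. For miR-1249-3p and miR-1224-5p the likeness over 27 libraries was thus not seen within those 17. What carried it was not tested. None of the 7 was among the 3 closest to another. All of these values share libraries and depth.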

How the data were processed

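Small RNA of 27 samples was measured. Per the labels' protocols, samples were snap-frozen, RNA was extracted with Trizol and libraries were made by Illumina's methods; Bowtie and GRCm38 (mm10) are named, without version or role, per the submitters' processing notes. The authors deposited 1 normalized signal for each mature miRNA, in whole numbers that sum to 10004170 to 10021510 per library. Low values were multiples of 1 step, rounded down, which gave the depth. Samples were grouped by the labels alone.

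limma-trend (limma 3.58.1, R 4.3.3) was run on log2(value + 1), 1 model each for neurons, CT18 and the time course, keeping miRNAs that reached a value of 100 (10 CPM) in 2 or more of its libraries (3 or more in the time course). Tests were two-sided, with Benjamini-Hochberg adjustment over all tested miRNAs and a threshold of 0.05. The rhythm test took cosine and sine of a 24 h period together. The models were also run on simulated data with 1 fixed spread. That run does not show how they behave at the spread between the neuron libraries. The members, marker lists and tests were chosen with earlier results of these data known. Named were the 7 members, the other arm of each hairpin, miRNAs with a shared seed and the 3 most correlated miRNAs of each, of which the closest is printed; miR-5099 and the marker miRNAs came from the ranking and the lists. Alternatives were other scalings, pseudocounts, filters, a replicate block and each library left out. The plan also held count models, which were not run because the deposited values are rounded and normalized.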

Additional observations from a re-analysis of the deposited data

How the results depend on the processing

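Counts of called miRNAs, in all and among the 7, were recomputed under each alternative for the rhythm, neuron and CT18 comparisons. The number of the 7 called stayed within 1.5 times for AVP against VIP neurons under all alternatives, and at 0 for the rhythm and for LP against CTRL. For AVP against CCK neurons it was 2 with a pseudocount of 10, and 0 to 1 with a library left out. For VIP against CCK neurons it was 1 with no filter and 0 to 2 with a library left out. Over all miRNAs, AVP against CCK neurons gave 0 to 69 calls with a library left out, beside 51. VIP against CCK neurons gave 56 calls after quantile normalization and 1 to 92 with a library left out, beside 91. LP against CTRL gave 0 to 21 calls with a library left out, beside 0. Where 1 library is left in a group, it is assumed to vary like the others. The causes were not tested.

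With the replicate number as a block, VIP against CCK neurons had 46 calls in all and 1 among the 7. The labels do not say that equal numbers share an animal or day, and deviations of same-numbered libraries correlated at 0.25 (LP and CTRL), -0.0611 (AVP and VIP), -0.0891 (AVP and CCK) and 0.119 (VIP and CCK), so the numbers were not taken as pairs. Under the block the adjusted p was 0.019 for miR-149-5p and 0.021 for miR-3099-3p in AVP against VIP neurons, and the calls of miR-1249-3p there (0.075) and of miR-3099-3p in VIP against CCK neurons (0.083) were lost.

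The count models were not run. Depth limits the low members: 2.08 CPM in AVP neurons as a group is what 3 reads allow.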

Other observations

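The CT18 libraries are labelled SCN like the tissue and time course libraries, but members stood lower there than in SCN tissue. miR-1224-5p had 26.4 to 35.1 CPM over the LP and CTRL libraries, close to the 19.3 and 29.3 CPM of hypothalamus, and miR-3099-3p had 28.7 to 51.5 CPM, around the 35.0 and 38.3 CPM of hypothalamus. miR-149-5p, at 4238.4 to 6251.2 CPM, and miR-346-5p, at 3453.2 to 3997.3 CPM, were also below both SCN tissue libraries but above hypothalamus. Mean G and C of the reads was 45.13% to 45.69% in the CT18 libraries and 45.62% and 45.77% in hypothalamus, against 48.11% and 48.32% in SCN tissue. The miR-7 miRNAs summed to 2034 to 5673 CPM at CT18, against 48276 and 51562 CPM in SCN tissue. None of these differences was tested, and part and condition cannot be told apart.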
